A study of Homo sapiens with 4 samples.

Results

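The mitochondrial ribosomal proteins were taken as all genes whose symbol is MRPL or MRPS followed by a number and at most 1 further letter. The rule gave 77 of the 26255 genes listed, 48 with a large-subunit symbol (MRPL) and 29 with a small-subunit symbol (MRPS). RNA was sequenced from HCT116, an established human colorectal cancer line, in 2 libraries of cells with a knockout (KO) of C14orf159 and in 2 libraries of control cells of that line that had received an empty vector (EV). C14orf159, called DGLUCY today, encodes a protein of the mitochondrial matrix, and the study asked why it lowers migration, invasion and spheroid growth. In the file headers the KO libraries carry the name sgDGLUCY and the controls the name AAVS1, a genomic site often cut as a neutral control, so the EV name follows the labels. The labels do not say whether a library came from a single clone, a pool of edited cells or a separate culture, so p-values reflect only how these 4 libraries vary, which can be technical variation.

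Mitochondria hold their own ribosome, which translates the few messenger RNAs encoded by mitochondrial DNA. Those messages encode membrane subunits of the respiratory chain and of ATP synthase. The ribosomal RNAs are made inside the organelle, whereas every protein of the ribosome is encoded in the nucleus, made in the cytosol and imported. Part of these proteins have relatives in the bacterial ribosome, and the others exist only in mitochondrial ribosomes.

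The symbols and the structure of the ribosome do not match throughout. MRPS30 (mL65) and MRPS18A (mL66) carry small-subunit symbols but sit in the large subunit. MRPS36, named KGD4 as well, belongs to the oxoglutarate dehydrogenase complex and is no ribosomal protein by structure. By structure the genes therefore comprise 50 large-subunit and 26 small-subunit proteins. Of the 76 ribosomal proteins, 46 are counted here as having a bacterial relative and 30 as specific to mitochondria, following their systematic names. MRPS18A and MRPS18B (mS40), paralogs of the bacterial-type MRPS18C, are among the 30 by this count.

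The targeted transcript was lower in both KO libraries but unequally so. C14orf159 stood at 2.52 and 10.8 FPKM in KO replicates 1 and 2, against 16.2 and 16.4 FPKM in EV replicates 1 and 2 (difference -1.42 on the log2(FPKM + 1) scale, SE 0.57, limma-trend adjusted p = 0.314). FPKM are fragments per kilobase of transcript, with a scaling between libraries that the sources do not state. The libraries held roughly 12.5 to 13.4 M (mega) fragments by an estimate from FPKM times transcript length. Only products between 0.06 and 0.1 were used, so this fixed window bounds the estimate whatever the true depth. Epithelial transcripts of the line were present, with EPCAM between 236 and 314 FPKM over the 4 libraries, whereas VIL1 was listed at 0 in 3 of them and at 0.0528 FPKM in EV replicate 2. No immune, fibroblast or endothelial marker of the 11 examined exceeded 0.208 FPKM. In bulk RNA a lower level and fewer cells of a kind cannot be told apart.

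All 77 genes were expressed, each at an FPKM above 1 in at least 2 libraries, the minimum for testing that 12701 genes met. Levels in EV cells spanned 11.8 FPKM for MRPS14 to 268 FPKM for MRPL51, with a median of 64.6 FPKM. MRPL51, a mitochondria-specific large-subunit protein, led with 263 and 296 FPKM in KO cells and 269 and 267 FPKM in EV cells. MRPL12, the stalk protein that helps recruit translation factors, was next with 190 and 250 FPKM in KO cells and 249 and 231 FPKM in EV cells. MRPL33, a small protein with a bacterial relative, followed in turn with 220 and 248 FPKM in KO cells and 196 and 205 FPKM in EV cells. The levels of MRPL12 and MRPL33 did not overlap in EV cells, but they did over all 4 libraries.

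In the small subunit the leading transcript was MRPS34, needed for stability of that subunit, with 152 and 197 FPKM in KO cells and 166 and 163 FPKM in EV cells. MRPS15 (101 and 134 FPKM in KO cells, 110 and 112 FPKM in EV cells) and MRPS23 (102 and 110 FPKM in KO cells, 108 and 112 FPKM in EV cells) came next, and their EV levels could not be separated. The scarcest transcripts were MRPS14, MRPS25 and MRPS11 in the small subunit and MRPL22, MRPL19 and MRPL30 in the large subunit. MRPS14 had 13.95 and 12.8 FPKM in KO cells against 11.9 and 11.8 FPKM in EV cells. MRPL22 had 12.6 and 14.4 FPKM in KO cells against 13.1 and 12.4 FPKM in EV cells. Both KO values exceeded both EV values for MRPS14, and the groups overlapped for MRPL22. MRPS25 had 14.9 and 16.4 FPKM in KO cells and 16.0 and 16.1 FPKM in EV cells. MRPS11 had 17.6 and 17.7 FPKM in KO cells and 17.8 and 16.4 FPKM in EV cells. By that bounded estimate of depth, MRPL19, at the low end, rested on roughly 122 fragments in EV replicate 1, and MRPL12, at the high end, on roughly 3322.

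**Figure D1:**
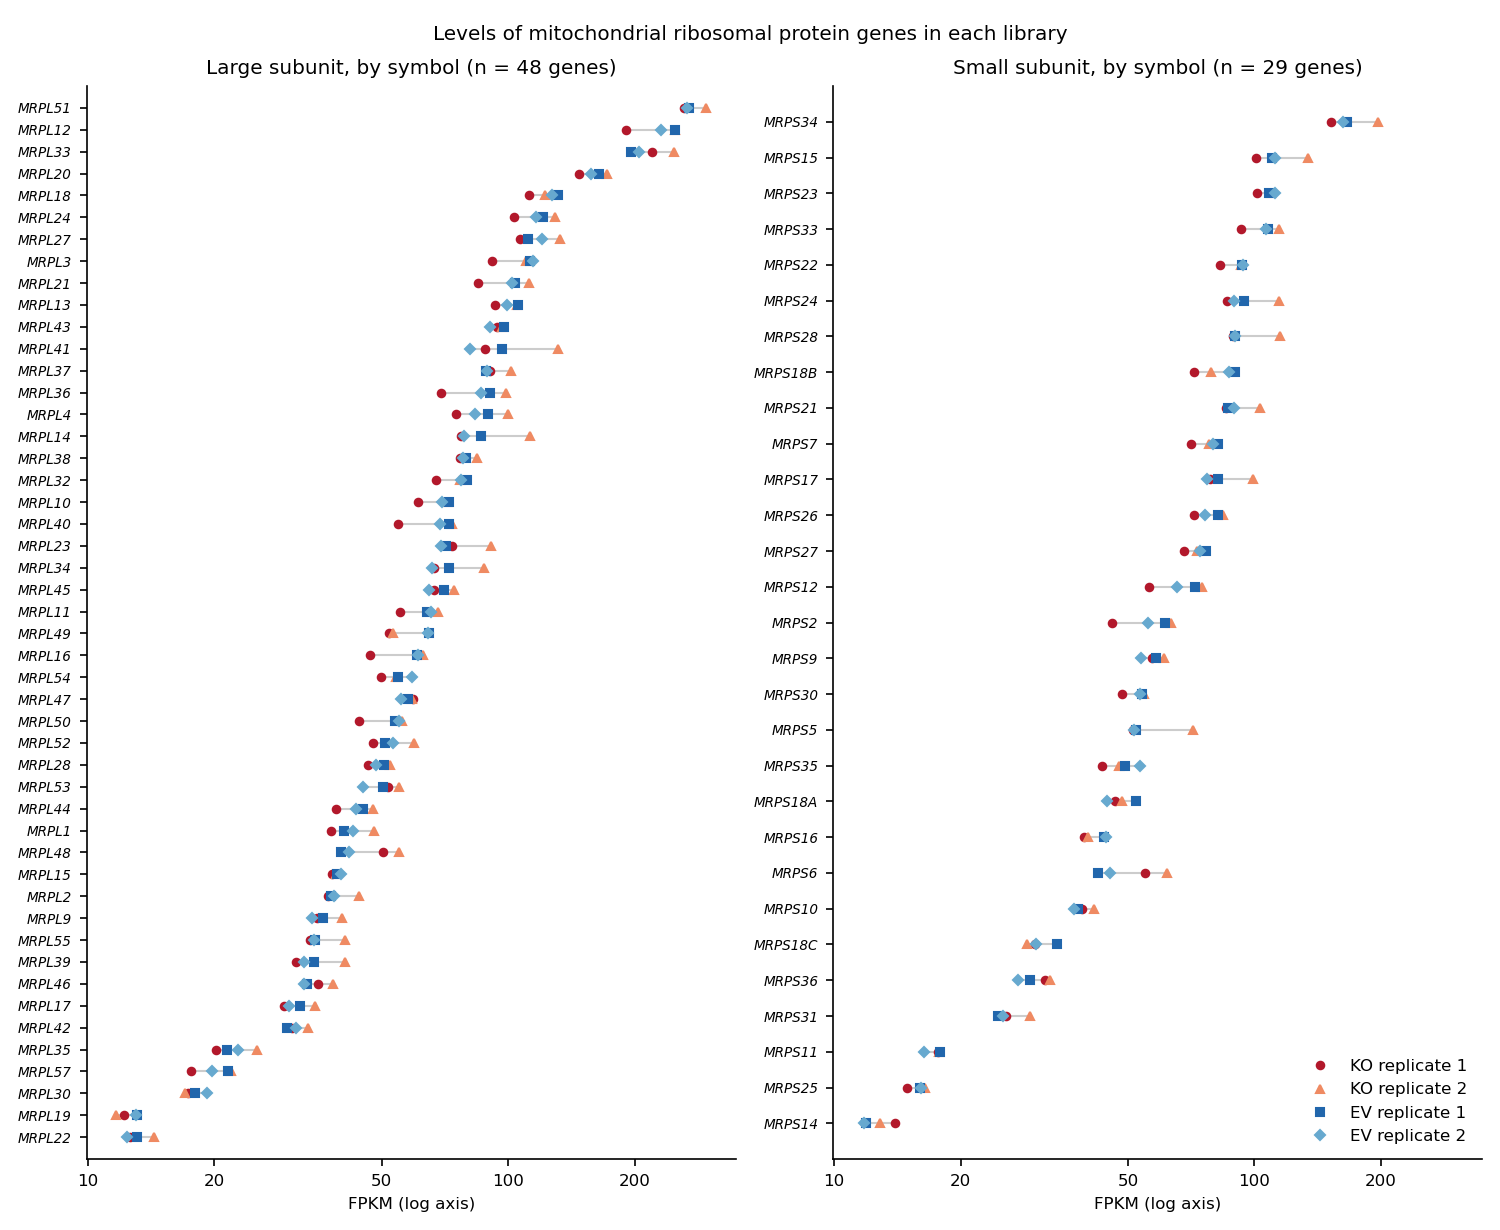
FPKM of each of the 77 genes in the 4 libraries on a log axis, large-subunit symbols on the left and small-subunit symbols on the right, ordered by the EV mean, with KO replicates in red and orange and EV replicates in blue. KO replicate 1 lies below both EV values in 54 rows, and KO replicate 2 lies above both in 56.

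The summed level differed between the KO libraries more than between the EV libraries. All 77 genes together came to 5071 FPKM in KO replicate 1 and 6043 FPKM in KO replicate 2, against 5555 and 5420 FPKM in EV replicates 1 and 2. Relative to the EV mean these sums were 92.4% and 110.1% in the KO libraries and 101.2% and 98.8% in the EV libraries. The balance of the subunits was kept while the sum moved. The large-subunit sum was 1.87 and 1.88 times the small-subunit sum in KO replicates 1 and 2, and 1.88 times in both EV replicates.

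To ask whether loss of C14orf159 altered these transcripts, both KO libraries were tested against both EV libraries for each gene. No mitochondrial ribosomal protein passed the test in either direction (limma-trend on log2(FPKM + 1), Benjamini-Hochberg adjusted over 12701 genes, threshold 0.05), and the smallest adjusted p was 0.208. Of all tested genes, 0.0551% were called in each direction. Without adjustment (p under 0.05), 2 of the 77 genes were higher (MRPS6 and MRPL48; background 9.23%) and 2 were lower (MRPL49 and MRPS18B; background 7.22%). The differences were positive for 40 genes and negative for 37, with a median of 0.019 against 0.0031 for all tested genes. The sign of that median depended on scaling and on single libraries, as it was -0.011 after quantile normalization and -0.030 after values were adjusted for base composition and length of the transcripts. It was -0.024 without EV replicate 2 and -0.097 without KO replicate 2.

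Both KO libraries lay above both EV libraries for 12 of the 77 genes (15.6%; background 26.5%). These were MRPL23, MRPL33, MRPL37, MRPL46, MRPL47, MRPL48, MRPL53, MRPS6, MRPS10, MRPS14, MRPS31 and MRPS36. Both lay below both EV libraries for 15 genes (19.5%; background 25.6%), namely MRPL3, MRPL15, MRPL18, MRPL19, MRPL30, MRPL32, MRPL49, MRPL54, MRPS7, MRPS16, MRPS18B, MRPS18C, MRPS22, MRPS27 and MRPS35. Both shares were under those of all tested genes.

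MRPS6, a bacterial-type protein of the small-subunit platform, had 54.9 and 62.0 FPKM in KO cells against 42.4 and 45.3 FPKM in EV cells. The groups did not overlap, and the difference was 0.40 (SE 0.096, 95% interval 0.155 to 0.654, adjusted p = 0.208 by limma-trend). MRPS6 shares its locus with SLC5A3, a myo-inositol transporter, so fragments could be split between them. SLC5A3 stood at 4.17 and 3.53 FPKM in KO cells and at 4.002 and 4.287 FPKM in EV cells.

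MRPL48, a mitochondria-specific protein of the central protuberance, had 50.4 and 55.0 FPKM in KO cells against 40.0 and 41.9 FPKM in EV cells. Its KO values were likewise above both EV values, with a difference of 0.36 (SE 0.085, 95% interval 0.134 to 0.577, adjusted p = 0.208 by limma-trend). MRPL46, of the central protuberance as well, had 35.2 and 38.3 FPKM in KO cells against 33.2 and 32.7 FPKM in EV cells (adjusted p = 0.409 by limma-trend). MRPL40, another protein of that region, did not follow, with 54.6 and 73.4 FPKM in KO cells on either side of 72.2 and 68.7 FPKM in EV cells.

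Smaller differences came from MRPS36, MRPL33, MRPS14, MRPL23 and MRPL53. MRPS36 had 31.7 and 32.6 FPKM in KO cells against 29.2 and 27.4 FPKM in EV cells (difference 0.18, adjusted p = 0.345 by limma-trend). For MRPL33, whose values are given above, the difference was 0.22 (adjusted p = 0.353 by limma-trend). MRPL23, which lines the exit of the peptide tunnel, had 73.7 and 90.8 FPKM in KO cells against 71.0 and 69.3 FPKM in EV cells, and the first KO value lay close to EV. MRPL53 had 51.7 and 55.0 FPKM in KO cells against 50.5 and 45.3 FPKM in EV cells.

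On the lower side, MRPL49, a mitochondria-specific large-subunit protein, had 51.9 and 53.2 FPKM in KO cells against 64.7 and 64.4 FPKM in EV cells. Replicates of both groups were tight, and the difference was -0.29 (SE 0.074, 95% interval -0.483 to -0.100, adjusted p = 0.212 by limma-trend). MRPS18B (mS40) had 71.8 and 78.7 FPKM in KO cells against 89.8 and 87.1 FPKM in EV cells (difference -0.23, SE 0.086, 95% interval -0.455 to -0.0068, adjusted p = 0.296 by limma-trend). Its groups did not overlap either. The differences of its paralogs were smaller, which was not tested. MRPS18A had 46.6 and 48.4 FPKM in KO cells within the span of 52.2 and 44.6 FPKM in EV cells. MRPS18C, the relative of bacterial S18 that neighbours MRPS6 in the platform, had 30.098 and 28.8 FPKM in KO cells and 33.9 and 30.145 FPKM in EV cells, so that its groups all but met.

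MRPS16, a relative of bacterial S16, had 39.3 and 40.2 FPKM in KO cells against 43.9 and 44.3 FPKM in EV cells (difference -0.15, adjusted p = 0.382 by limma-trend). MRPS35, a mitochondria-specific small-subunit protein, had 43.3 and 47.5 FPKM in KO cells against 49.2 and 53.5 FPKM in EV cells (difference -0.17, adjusted p = 0.408 by limma-trend). Both genes had lower values in each KO library than in either EV library. MRPL18, known also for binding 5S rRNA, had 112 and 122 FPKM in KO cells against 131 and 127 FPKM in EV cells. MRPL19 had 12.2 and 11.7 FPKM in KO cells against 13.08 and 13.02 FPKM in EV cells. MRPL54 had 49.8 and 53.9 FPKM in KO cells against 54.5 and 59.1 FPKM in EV cells. In none of these genes did the groups overlap, and in all of them the adjusted p was 0.382 or above.

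**Figure D2:**
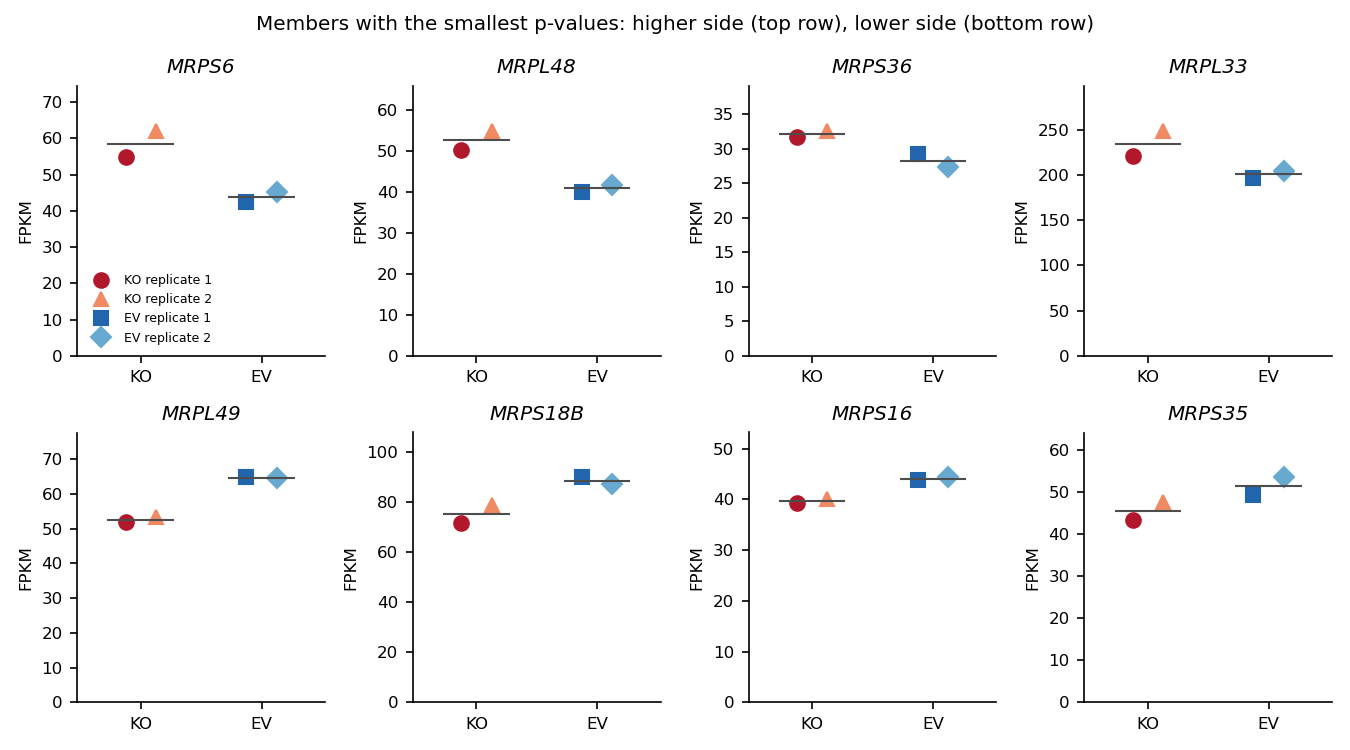
FPKM per library, with the group mean as a line, for the 4 genes with the smallest p on the higher side (top row) and on the lower side (bottom row), KO on the left and EV on the right of each panel. In each of the 8 panels both KO values lie on the same side of both EV values, and MRPL49 has the narrowest replicates relative to its difference of -0.29.

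The proteins at the functional centres were examined by role. At the stalk, where translation factors dock, MRPL10 had 61.1 and 71.5 FPKM in KO cells against 72.1 and 69.5 FPKM in EV cells, and MRPL11, at the base of the stalk, had 55.3 and 68.2 FPKM in KO cells against 64.1 and 65.6 FPKM in EV cells. For MRPL10, MRPL11 and MRPL12 alike, KO replicate 1 was below both EV values and KO replicate 2 was not. MRPS12, at the decoding centre, had 56.3 and 75.0 FPKM in KO cells, outside 72.1 and 65.5 FPKM in EV cells on both sides.

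MRPL3, close to the peptidyl transferase centre, had 91.6 and 110 FPKM in KO cells against 113 and 115 FPKM in EV cells (difference -0.18, adjusted p = 0.480 by limma-trend). MRPL45, which anchors the ribosome at the inner membrane, had 66.6 and 74.2 FPKM in KO cells and 70.3 and 64.9 FPKM in EV cells, and the groups overlapped. MRPS30 had 48.5 and 54.7 FPKM in KO cells, on either side of 54.0 and 53.4 FPKM in EV cells.

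Each KO library was therefore set against the EV mean alone. Both comparisons share the EV libraries, and a lone library has no replicate of its own. KO replicate 1 was lower, with a median difference of -0.097 over the 77 genes (93.2% of the EV mean), against -0.0043 for all tested genes. KO replicate 2 was higher, with a median of 0.11 (108% of the EV mean), against 0.014 for all tested genes. Between EV replicates 2 and 1 the median difference was -0.031 over the 77 genes.

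KO replicate 1 lay below both EV values for 54 of the 77 genes (70.1%; background 42.8%) and above both for 12 (15.6%; background 41.3%). KO replicate 2 lay above both EV values for 56 genes (72.7%; background 45.7%) and below both for 15 (19.5%; background 41.4%). Without reference to EV, KO replicate 2 was above KO replicate 1 for 72 of the 77 genes (93.5%; background 52.1%). EV replicate 2 was above EV replicate 1 for 26 genes (33.8%; background 50.1%). The background moved with level. In 5611 tested genes the mean over all 4 libraries lay within the range of such means of the 77 genes. Among these 5611, KO replicate 1 was below both EV values for 50.4%, and KO replicate 2 was above both for 50.5%. KO replicate 2 was above KO replicate 1 for 62.5% of them.

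**Figure D3:**
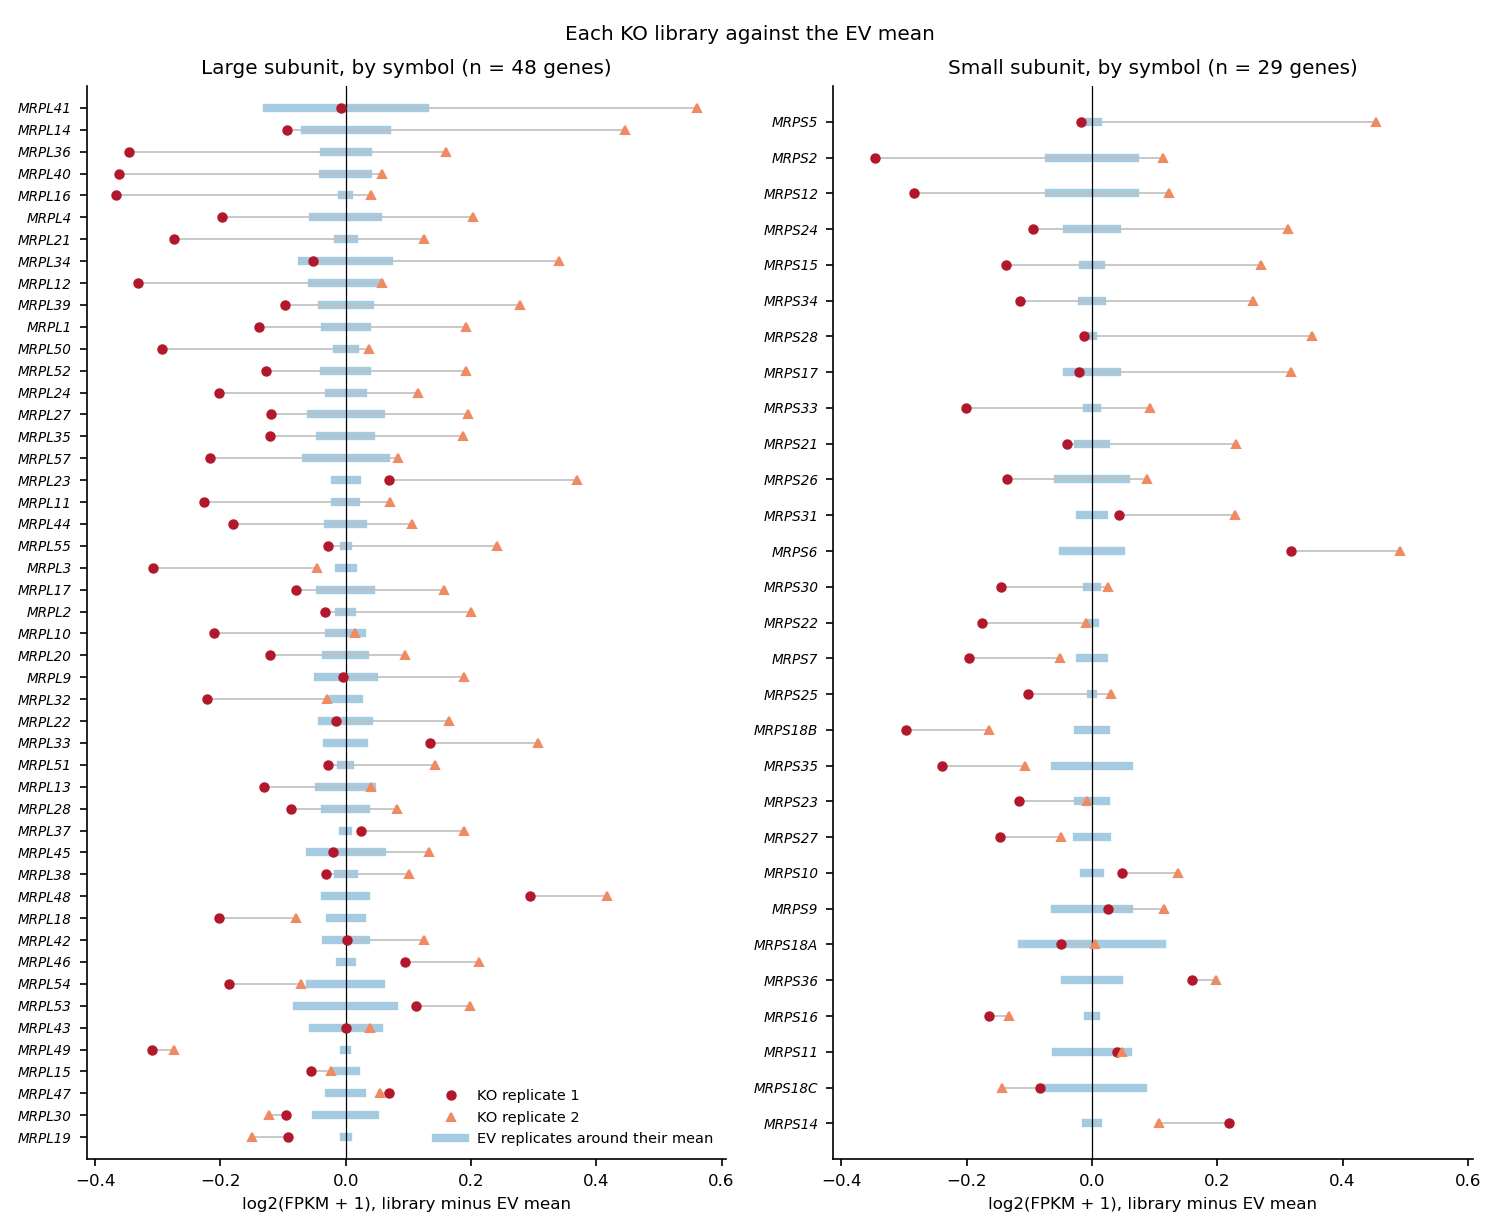
Difference of each KO library from the EV mean in log2(FPKM + 1), 1 row per gene, with KO replicate 1 as circles, KO replicate 2 as triangles and the EV replicates as a bar around 0; rows are ordered by the gap between the KO replicates. KO replicate 1 lies to the left of KO replicate 2 in 72 of the 77 rows, and MRPL48, MRPS6 and MRPL49 are among the rows where both lie clear of the EV bar on the same side.

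A single KO library was also fitted against both EV libraries, on the assumption that it varies as the EV libraries do. Some of the 77 genes then passed the test. The backgrounds given here are over all tested genes and are not matched for level. Among tested genes within the level range of the 77, larger shares were called lower with KO replicate 1 and higher with KO replicate 2. With KO replicate 1, 2 genes were called higher (MRPL48 and MRPS6; background 6.29%) and 10 lower (background 6.94%). The lower ones were MRPL3, MRPL12, MRPL16, MRPL21, MRPL36, MRPL40, MRPL49, MRPL50, MRPS2 and MRPS18B. With KO replicate 2, 15 were called higher (19.5%; background 10.9%) and 1 lower (MRPL49; background 6.62%). The higher ones were MRPL14, MRPL23, MRPL33, MRPL34, MRPL39, MRPL41, MRPL48, MRPS5, MRPS6, MRPS15, MRPS17, MRPS21, MRPS24, MRPS28 and MRPS34. In these 2 fits, which share their EV libraries, MRPL48 had adjusted p-values of 0.0422 and 0.0199 with KO replicates 1 and 2, MRPS6 had 0.0409 and 0.0162, and MRPL49 had 0.0292 and 0.0345.

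The gap between the KO libraries was widest in MRPL41, MRPL14, MRPL36, MRPS5 and MRPS2. MRPL41, a mitochondria-specific protein, had 88.1 and 131 FPKM in KO replicates 1 and 2, against 96.8 and 81.1 FPKM in EV cells. KO replicate 1 thus fell between the EV values, while KO replicate 2 stood at 148% of the EV mean. MRPL14, which faces the small subunit, had 77.1 and 112 FPKM in KO cells against 86.1 and 78.6 FPKM in EV cells.

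MRPS5, which lies near the entry of the messenger RNA, had 51.3 and 71.5 FPKM in KO cells against 52.3 and 51.6 FPKM in EV cells, so the deviation was that of KO replicate 2. MRPL36 showed the gap on the other side, with 69.1 and 98.6 FPKM in KO cells against 90.4 and 86.0 FPKM in EV cells. MRPS2 had 45.8 and 63.4 FPKM in KO cells against 61.4 and 55.8 FPKM in EV cells. In 5 genes KO replicate 2 was the lower one, with differences from KO replicate 1 of -0.11 in MRPS14, -0.061 in MRPS18C, -0.057 in MRPL19, -0.027 in MRPL30 and -0.014 in MRPL47. Of these, MRPL30 had 17.34 and 17.001 FPKM in KO cells against 17.95 and 19.2 FPKM in EV cells, and MRPL47 had 59.5 and 58.9 FPKM in KO cells against 57.8 and 55.7 FPKM in EV cells.

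Large and small subunits were then set side by side, as a description without a test. In KO replicate 1 the median difference from the EV mean was -0.096 for the 48 large-subunit genes and -0.10 for the 29 small-subunit genes. In KO replicate 2 it was 0.12 for the large and 0.11 for the small subunit. KO replicate 1 was below both EV values for 34 of 48 large-subunit and 20 of 29 small-subunit genes, and KO replicate 2 was above both for 37 of 48 and 19 of 29.

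With both KO libraries together the median difference was 0.023 for the large subunit, which turned to -0.0050 after quantile normalization and -0.026 after the adjustment for base composition and length, and -0.023 for the small subunit, which was -0.030 and -0.053 under these. Without EV replicate 1 the small-subunit median was 0.052, and without EV replicate 2 the large-subunit median was -0.013. Grouped by structure the medians were 0.011 for 50 large-subunit genes and 0.0099 for 26 small-subunit genes, so the sign of the small-subunit median turned on 3 genes with misleading symbols. By origin as counted above, the 46 genes with a bacterial relative had medians of -0.094 and 0.12 in KO replicates 1 and 2. The 30 mitochondria-specific genes had -0.12 and 0.090. KO replicate 2 was above KO replicate 1 in all 30 mitochondria-specific genes and in 41 of the 46 others.

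Base composition, level and position were recorded beside these differences. Across the 77 genes the gap between KO replicates 2 and 1 had a Pearson correlation of 0.42 with the GC content of the transcripts and of 0.40 with the mean level; over all tested genes with an annotated transcript (n = 12001) these were 0.15 and 0.15. Spearman's rho was 0.39 with GC content and 0.37 with level over the 77 genes, against 0.27 and 0.25 over all tested genes. The difference between EV replicates 2 and 1 had a Pearson correlation of -0.40 and a rho of -0.36 with GC content over the 77 genes, against -0.11 and -0.34 over all tested genes. The points share the same 4 libraries, so these values describe the libraries. In the 38 genes above the median GC content of 50.4% the median gap between the KO replicates was 0.31, and in the 39 others it was 0.17. After the adjustment for base composition and length the medians were -0.10 and 0.093 in KO replicates 1 and 2, and KO replicate 2 was above KO replicate 1 in 67 genes. After quantile normalization the medians were -0.073 and 0.046, and the count was 57. The part of base composition in the gap between the KO libraries was not tested.

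**Figure D4:**
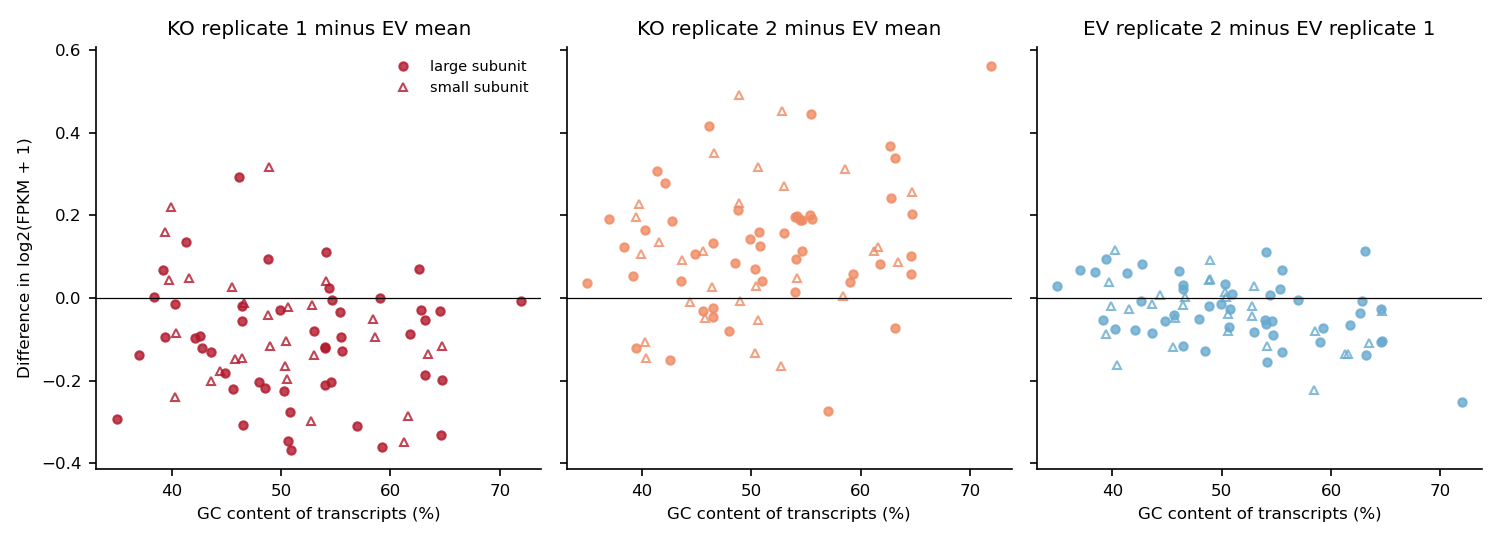
Difference in log2(FPKM + 1) against the GC content of the transcripts for the 77 genes (circles, large subunit; open triangles, small subunit), for KO replicate 1 minus the EV mean, KO replicate 2 minus the EV mean and EV replicate 2 minus EV replicate 1. Most points lie below 0 on the left and above 0 in the middle panel, and the EV difference declines with GC content.

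The genes are spread over 21 chromosomes, with at most 8 on any one. With the 20 tested genes on either side in gene order as neighbours, 58 of the 77 genes lay below the median of their neighbours in KO replicate 1, and 60 lay above it in KO replicate 2. The same counts were not made over all tested genes, and neighbours were not matched for level. A part of position in the differences was not tested. MRPL52 is the sole one on chromosome 14, which also carries C14orf159. It had 47.6 and 59.6 FPKM in KO cells against 50.8 and 53.3 FPKM in EV cells, with neighbour medians of 0.056 and 0.061 in KO replicates 1 and 2. For MRPS6 the neighbour medians were -0.011 and 0.044 beside its own 0.32 and 0.49. For MRPL48 they were 0.087 and 0.13 beside 0.29 and 0.42, and for MRPL49 0.046 and 0.088 beside -0.31 and -0.27.

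Promoter sequence was examined because nuclear genes for mitochondrial proteins often carry sites for NRF1, for ETS factors such as GABP, and for YY1. RefSeq windows (assembly GRCh38.p14) of 250 bases before to 50 bases after the start were matched by symbol for 68 of the 77 genes; MRPL2, MRPL10, MRPL13, MRPL15, MRPL21, MRPL23, MRPL35, MRPS28 and MRPS36 were not matched. Each motif was searched on both strands, and overlaps between motifs were allowed. A match of letters does not show a binding site. The YY1 letters AAGATGGCG stood in 13 of 68 genes (19.1%), against 4.94% of tested genes and 2.14% of all genes in the table. The ETS letters CCGGAAG stood in 29 of 68 (42.6%), against 22.9% and 12.2%. The NRF1 letters GCATGCGC stood in 6 of 68 (8.82%), against 6.56% and 3.68%.

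In 10 of the 13 genes the YY1 letters lay on the gene's own strand just past the start, with the first letter at bases 7 to 36, counting the start as base 1. The 30-base windows of 6 of them are printed from 5′ to 3′, with the YY1 letters in capitals. The windows were cut around these letters, so the alignment of the capitals does not show where they lie from the start. They lie at chr6:30617853-30617882 (plus strand), chr6:42217833-42217862 (minus), chr5:44808950-44808979 (plus), chr5:154941093-154941122 (plus), chr12:93467512-93467541 (plus) and chr15:88467361-88467390 (minus) of GRCh38.p14, in the order printed.
MRPS18B: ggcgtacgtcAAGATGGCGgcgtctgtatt
MRPS10: cgggaccggcAAGATGGCGgcgcggacagc
MRPS30: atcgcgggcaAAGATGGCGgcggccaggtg
MRPL22: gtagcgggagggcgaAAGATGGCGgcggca
MRPL42: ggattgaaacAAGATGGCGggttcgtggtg
MRPL46: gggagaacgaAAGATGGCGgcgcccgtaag
The first letter of the motif is base 24 in MRPS18B, base 10 in MRPS10, base 14 in MRPS30, base 36 in MRPL22 and base 9 in MRPL42 and in MRPL46.

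The differences were set out by motif, as a description. With the YY1 letters (13 genes) KO replicate 1 had a median of -0.095 and KO replicate 2 a median of 0.12, and without them (55 genes) the medians were -0.10 and 0.11. With the ETS letters (29 genes) the medians were -0.12 and 0.087, and without them (39 genes) -0.097 and 0.12. With the NRF1 letters (6 genes) they were -0.11 and 0.064, and without them (62 genes) -0.0996 and 0.11. YY1 itself stood at 24.5 and 35.4 FPKM in KO cells against 39.7 and 40.2 FPKM in EV cells (difference -0.43, adjusted p = 0.331 by limma-trend).

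The 250 bases before the start are printed for the 4 genes with an unadjusted p under 0.05, the pair on the higher side first, with any of the 3 motifs in capitals. They lie at chr21:34073328-34073577 for MRPS6, chr11:73787624-73787873 for MRPL48, chr11:65121933-65122182 for MRPL49 (the first of 2 annotated starts) and chr6:30617590-30617839 for MRPS18B, all on the plus strand of GRCh38.p14.
MRPS6: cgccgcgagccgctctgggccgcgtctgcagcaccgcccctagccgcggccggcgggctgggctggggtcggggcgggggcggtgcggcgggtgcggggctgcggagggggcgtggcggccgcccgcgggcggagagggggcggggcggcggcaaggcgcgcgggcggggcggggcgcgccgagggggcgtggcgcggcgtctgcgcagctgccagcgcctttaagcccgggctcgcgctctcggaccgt
MRPL48: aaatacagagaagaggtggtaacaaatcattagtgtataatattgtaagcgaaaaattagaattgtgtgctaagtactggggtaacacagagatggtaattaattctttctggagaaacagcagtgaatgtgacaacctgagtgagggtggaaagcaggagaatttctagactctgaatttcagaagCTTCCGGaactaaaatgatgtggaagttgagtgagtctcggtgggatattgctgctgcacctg
MRPL49: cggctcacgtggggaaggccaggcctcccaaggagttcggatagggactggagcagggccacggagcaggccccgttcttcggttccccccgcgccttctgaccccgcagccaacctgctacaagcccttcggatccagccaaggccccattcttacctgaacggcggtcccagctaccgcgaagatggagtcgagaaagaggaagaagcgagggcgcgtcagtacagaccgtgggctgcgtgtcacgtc
MRPS18B: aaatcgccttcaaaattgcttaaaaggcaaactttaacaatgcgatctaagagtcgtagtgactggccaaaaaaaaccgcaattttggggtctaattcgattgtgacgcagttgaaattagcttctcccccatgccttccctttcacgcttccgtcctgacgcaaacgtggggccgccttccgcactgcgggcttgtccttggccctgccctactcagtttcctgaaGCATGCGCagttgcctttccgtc
The capitals mark the ETS letters in MRPL48, read on the other strand, and the NRF1 letters in MRPS18B. These letters do not occur in the printed windows of MRPS6 and MRPL49. The GC content of the windows was 84.8% for MRPS6, 40.0% for MRPL48, 64.8% for MRPL49 and 50.4% for MRPS18B.

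Other genes of mitochondrial translation were compared by lists. The 6 ribosomal proteins that carry other names had a median of -0.025 in the first KO library and 0.21 in the second, and none passed the test or had an unadjusted p under 0.05. DAP3, a GTP-binding protein of the small subunit, had 78.4 and 87.8 FPKM in KO cells against 76.3 and 76.7 FPKM in EV cells, and CHCHD1 had 62.5 and 72.1 FPKM in KO cells against 58.8 and 58.5 FPKM in EV cells. ICT1, a peptidyl-tRNA hydrolase built into the large subunit, had 67.4 and 78.6 FPKM in KO cells against 62.7 and 66.0 FPKM in EV cells. These 3 had the smallest p of the list, and in each both KO values were above both EV values. That held for 3 of the 6 genes (50%, background 26.5%), and both KO values were below both EV values in 0 (background 25.6%).

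None of 28 assembly and rRNA factors and none of 19 translation factors passed the test. The assembly factors had medians of -0.15 and -0.029 in KO replicates 1 and 2, and 2 of 28 (7.14%; background 7.22%) were lower at an unadjusted p under 0.05. One of them was METTL15, which methylates the small ribosomal RNA, with 8.25 and 8.82 FPKM in KO cells against 11.1 and 11.1 FPKM in EV cells (adjusted p = 0.209 by limma-trend). The other was MIEF1, known for recruiting the mitochondrial fission machinery and listed for the small protein its transcript also encodes, with 13.3 and 13.5 FPKM in KO cells against 16.6 and 16.3 FPKM in EV cells (adjusted p = 0.230 by limma-trend). MTG2, a GTPase of large-subunit assembly, had 10.8 and 10.5 FPKM in KO cells against 12.4 and 12.3 FPKM in EV cells (adjusted p = 0.317 by limma-trend). These 3 had the smallest p of the list, and in each both KO values were below both EV values. That held for 11 of the 28 (39.3%, background 25.6%), and both were above in 1 (3.57%, background 26.5%).

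Of the translation factors, 3 were lower (15.8%; background 7.22%) and 1 was higher (5.26%; background 9.23%) when p was left unadjusted (threshold 0.05). MTIF3, an initiation factor, had 40.9 and 40.6 FPKM in KO cells against 33.0 and 31.2 FPKM in EV cells (difference 0.33, adjusted p = 0.208 by limma-trend). GFM2, which recycles ribosomes after termination, had 14.8 and 14.9 FPKM in KO cells against 18.6 and 18.01 FPKM in EV cells (difference -0.29, adjusted p = 0.226 by limma-trend). GUF1, a GTPase related to bacterial LepA, had 10.2 and 11.98 FPKM in KO cells against 14.1 and 14.7 FPKM in EV cells (difference -0.35, adjusted p = 0.243 by limma-trend).

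Among 14 genes of mitochondrial DNA transcription and RNA turnover none passed the test. Without adjustment, 6 of the 14 had a p under 0.05, all on the lower side (background 7.22%). TFAM, which packages mitochondrial DNA and activates its promoters, had 12.9 and 15.3 FPKM in KO cells against 17.9 and 18.2 FPKM in EV cells (difference -0.34, adjusted p = 0.247 by limma-trend). SUPV3L1, a helicase of the RNA degradosome, had 19.9 and 17.2 FPKM in KO cells against 24.3 and 23.6 FPKM in EV cells (difference -0.36, adjusted p = 0.232 by limma-trend). ELAC2, which trims the 3′ ends of transfer RNAs, had 37.3 and 41.01 FPKM in KO cells against 47.0 and 46.2 FPKM in EV cells (difference -0.25, adjusted p = 0.278 by limma-trend). In these 3 genes, which had the smallest p of the list, the groups did not overlap. Both KO values were below both EV values in 6 of the 14 (42.9%, background 25.6%) and above in 2 (14.3%, background 26.5%). The medians of the list were -0.21 and 0.026 in KO replicates 1 and 2. Of 9 tested nuclear regulators of mitochondrial genes none passed the test, and 1 was lower without adjustment (11.1%; background 7.22%). Both KO values were below both EV values in 6 of the 9 (66.7%, background 25.6%) and above in 0 (background 26.5%). The medians of these 9 were -0.27 and -0.14 in KO replicates 1 and 2. The gene lower without adjustment was PPRC1, a coactivator of the PGC-1 family. It had 21.6 and 22.2 FPKM in KO cells against 29.97 and 28.7 FPKM in EV cells (difference -0.41, adjusted p = 0.183 by limma-trend). GABPB1, a subunit of the ETS-type factor GABP, had 8.09 and 8.37 FPKM in KO cells against 9.13 and 9.52 FPKM in EV cells (difference -0.16, adjusted p = 0.401 by limma-trend). MYC had 123 and 227 FPKM in KO cells, on either side of 203 and 187 FPKM in EV cells.

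Higher medians in KO replicate 2 were also found for ribosomal proteins of the cytosol and the respiratory chain. The 82 cytosolic ribosomal proteins had medians of -0.032 and 0.26 in KO replicates 1 and 2. KO replicate 2 was above KO replicate 1 in 79 of them (96.3%; background 52.1%). The 77 nuclear-encoded respiratory chain and ATP synthase genes had medians of -0.0067 and 0.22, with KO replicate 2 higher in 73 (94.8%; background 52.1%). These backgrounds are over all tested genes and are not matched for level. None of either list passed the test of KO against EV. Both lists were drawn by symbol, so they can hold relatives and pseudogenes of such genes. Without adjustment, 1 gene of the cytosolic list was lower (RPL7L1, a relative of RPL7) and none was higher. In the respiratory list 6 were higher and 2 lower, the pseudogene ATP5EP2 among the lower ones (backgrounds 9.23% higher and 7.22% lower). KO replicate 2 was below both EV values in 2 of the 82 cytosolic ribosomal proteins and in 4 of the 77 respiratory chain genes. For the 77 mitochondrial ribosomal proteins that count was 15 (background 41.4%).

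Among the cytosolic ribosomal proteins the smallest p belonged to RPL7L1, a relative of RPL7, with 49.3 and 48.5 FPKM in KO cells against 61.95 and 62.5 FPKM in EV cells (difference -0.34, adjusted p = 0.194 by limma-trend). RPS27L, a relative of RPS27, had 91.8 and 89.7 FPKM in KO cells against 101.5 and 102.8 FPKM in EV cells (difference -0.17, adjusted p = 0.348 by limma-trend). RPL36A, a protein of the large cytosolic subunit, had 808 and 950.2 FPKM in KO cells against 759 and 739 FPKM in EV cells (difference 0.23, adjusted p = 0.434 by limma-trend). In all 3, which had the smallest p of the list, the groups did not overlap. Both KO values were below both EV values in 2 of the 82 (2.44%, background 25.6%) and above in 16 (19.5%, background 26.5%). The smallest p of the respiratory list belonged to ATP5EP2, a pseudogene of an ATP synthase subunit that can share fragments with its parent gene, with 0.907 and 2.202 FPKM in KO cells against 20.96 and 17.08 FPKM in EV cells (difference -3.01, adjusted p = 0.0865 by limma-trend). NDUFB4, a complex I subunit, had 267 and 239 FPKM in KO cells against 196 and 192 FPKM in EV cells (difference 0.38, adjusted p = 0.216 by limma-trend). NDUFS4, another complex I subunit, had 122 and 125 FPKM in KO cells against 103 and 101 FPKM in EV cells (difference 0.28, adjusted p = 0.229 by limma-trend). In the respiratory list both KO values were above both EV values in 29 of the 77 (37.7%, background 26.5%) and below in 3 (3.9%, background 25.6%).

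**Figure D5:**
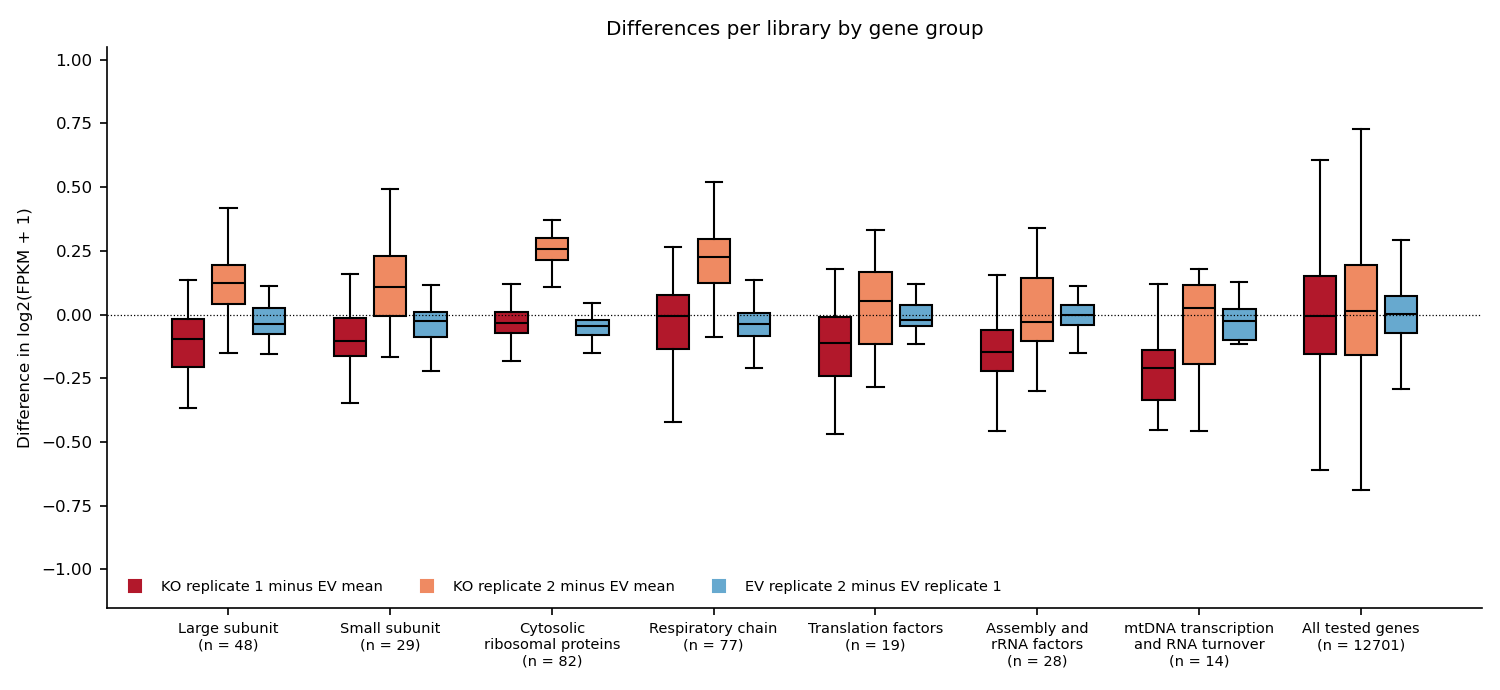
Differences in log2(FPKM + 1) by gene group, for KO replicate 1 minus the EV mean (red), KO replicate 2 minus the EV mean (orange) and EV replicate 2 minus EV replicate 1 (blue); boxes span the quartiles with the median as a line, whiskers reach the last gene within 1.5 box lengths, and points beyond are not drawn. Medians of both ribosomal subunits lie below 0 for the red boxes and above 0 for the orange boxes, and the cytosolic ribosomal proteins have the highest median of KO replicate 2 among the groups shown, 0.26.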

How the data were processed

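The authors deposited FPKM per gene symbol for each library. TopHat2 2.0.13, Bowtie2 2.2.3, SAMtools 0.1.19, Cuffnorm 2.2.1 and hg19 are named in the submitters' processing notes, and poly(A) libraries were made with a stranded kit, per the labels' protocols. The sources used here do not give the annotation, the scaling or whether counting used strand. Antisense genes, overlapping genes and pseudogenes of these genes can therefore share fragments.

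Genes that reached an FPKM of 1 in 2 or more of the 4 libraries were tested on log2(FPKM + 1) with limma 3.58.1 (eBayes with trend; 2.82 prior and 2 residual degrees of freedom) in R 4.3.3, with group as the sole term, KO minus EV. The pseudocount understates changes of low genes. P-values were Benjamini-Hochberg adjusted over all 12701 tested genes. A single KO library was fitted by leaving out the other. Depth was estimated from FPKM times transcript length (GENCODE release 29) in single-transcript genes, as the median of products between 0.06 and 0.1, and is rough. These fixed limits bound the depth and the fragment numbers taken from it. Gene order and promoters came from RefSeq tables of GRCh38.p14 by symbol; the values rest on hg19, so gene coordinates are not printed. The fit was run on simulated data with noise drawn from the EV pair and planted changes larger than those of the mitochondrial ribosomal proteins. That run does not show how often differences of their size would be found.

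Genes were named by rule: the 8 smallest p-values per direction and the 5 widest gaps between KO libraries per direction. The 3 highest and 3 lowest levels per subunit, genes chosen by role and the 3 smallest p-values of each other list were also named. The 3 pseudogenes of these genes are described under other observations. MRPL40, MRPL52, MYC, the genes of the 30-base windows and the transcripts at members' loci were chosen after their values were seen. The genes, the lists and the rule were chosen with earlier results of these data known.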

Additional observations from a re-analysis of the deposited data

How the results depend on the processing

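No mitochondrial ribosomal protein was called in any of the 8 alternative settings of pseudocount, filter, scaling or variance model, under the correction for GC content and transcript length (chosen after seeing the data), with a replicate block or without an EV replicate. Leaving out a library gave 0 to 15 genes called higher and 0 to 10 called lower, with the upper ends reached without KO replicate 1 and without KO replicate 2. Over all tested genes 7 were called higher and 7 lower. Higher calls numbered 3 without a filter, 3 without the trend and 4 with a replicate block; lower calls numbered 3 without a filter, 4 after quantile normalization and 3 after the GC correction. Leaving out a library gave 6 to 1381 higher and 5 to 881 lower calls. The labels do not say whether the replicate numbers pair the samples. The KO and EV replicate deviations had a correlation of -0.00455 over tested genes and of -0.163 over the 77 genes. With 1 deviation per group these values cannot decide whether the replicates were paired. With the block the smallest adjusted p of these genes was 0.296 (limma-trend).

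The median of KO replicate 2 minus EV was 0.046 over all 77 genes, 0.052 in the large and 0.036 in the small subunit after quantile normalization, and 0.035 in the small subunit after the GC correction; the cause was not tested. The difference of MRPL51 was -0.011 after quantile normalization and that of MRPS34 was -0.030 after the GC correction, both positive otherwise with all 4 libraries. With each library left out in turn, differences ranged from -0.21 to 0.015 for MRPL10, -0.23 to 0.071 for MRPL11, -0.33 to 0.059 for MRPL12, -0.093 to 0.45 for MRPL14, -0.015 to 0.16 for MRPL22, -0.35 to 0.16 for MRPL36, -0.0079 to 0.56 for MRPL41, -0.020 to 0.13 for MRPL45 and -0.029 to 0.14 for MRPL51. They ranged from -0.014 to 0.10 for MRPS11, -0.28 to 0.12 for MRPS12, -0.14 to 0.27 for MRPS15, -0.13 to 0.089 for MRPS18A, -0.35 to 0.11 for MRPS2, -0.10 to 0.030 for MRPS25, -0.15 to 0.026 for MRPS30, -0.12 to 0.26 for MRPS34 and -0.017 to 0.45 for MRPS5. Of 38 named genes, the other 20 kept their sign in every setting run.

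With 2 libraries a group and KO libraries that differ from each other, the p-values rest on few degrees of freedom, and fits with a lone KO library take its spread from EV. The targeted transcript itself was unequal in the KO libraries.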

Other observations

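Pseudogenes of these genes, and transcripts at their loci that are no members, were also listed. MRPS31P5, a pseudogene of MRPS31, stood at 11.0 FPKM in KO replicate 1 and 4.38 FPKM in KO replicate 2, against 4.22 and 4.58 FPKM in EV replicates 1 and 2, while MRPS31 had 25.6 and 29.3 FPKM in KO cells and 24.5 and 25.2 FPKM in EV cells. MRPL42P5 had 2.203 and 0.0739 FPKM in KO cells against 1.55 and 1.38 FPKM in EV cells, and MRPL45P2 had 3.12 and 2.08 FPKM in KO cells against 1.79 and 2.25 FPKM in EV cells. All 3 pseudogenes were higher in KO replicate 1 than in KO replicate 2, and none passed the test (limma-trend, smallest adjusted p = 0.498). MRPL23-AS1, an antisense transcript of MRPL23, had 1.07 and 0.874 FPKM in KO cells against 2.10 and 1.57 FPKM in EV cells (adjusted p = 0.249 by limma-trend). The read-through transcript URGCP-MRPS24 was listed at 0 in both KO libraries and in EV replicate 2, and at 1.95 FPKM in EV replicate 1.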
